A study of Rattus norvegicus with 30 samples.

Results

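Tenocytes, the fibroblasts of tendon, are specified and kept in their state by a small set of transcription factors that switch on the collagens and small proteoglycans of the tissue. Scleraxis (Scx) and mohawk (Mkx) sit at the centre of that set, the early growth response factors Egr1 and Egr2 respond to loading and growth factor signals and act on tendon collagen genes, Six2 is a homeobox factor present in developing tendons, and tenomodulin (Tnmd) is a membrane glycoprotein that marks differentiated tenocytes. These 6 genes are described here in the healing rat plantaris tendon. They were chosen by name, with earlier results of these data known. They are 6 of the 13124 genes with deposited counts and 6 of the 12558 genes that passed a filter on low values.

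The tendons came from 3-month-old male Sprague Dawley rats. In the repaired groups the plantaris tendon, which runs beside the Achilles tendon, was fully transected and sutured at once, and the rats then received vehicle (0 mg/kg) or GSK2894631A, an inhibitor of hematopoietic prostaglandin D synthase, at 2 or 6 mg/kg by oral gavage 2 times a day until harvest at 7 (7D) or 21 (21D) days. RNA of 30 tendons was sequenced: 3 control tendons from rats with no surgery and no compound, 5 tendons of 7D 0 mg/kg, 4 of 7D 2 mg/kg, 3 of 7D 6 mg/kg, and 5 each of 21D 0, 2 and 6 mg/kg. The labels were used for the 7D 6 mg/kg group, where the removals on read quality named in the methods would leave 1 more tendon. Whether the control rats were gavaged is not given in the sources used here, and no group had surgery without transection or time points in the control tendons, so the injury, the surgery and the gavage cannot be told apart. The 6 comparisons with control share the same 3 control tendons.

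Each tendon had between 12405741 and 49909374 counts in all, with a median of 31593129.5. At these depths a count of 3 corresponded to 0.0601 to 0.242 CPM, the counts scaled to the depth of a library, a limit that covers counting error only. All levels below are CPM after TMM scaling, which brings the bulk of genes to a common level. Log2 fold changes, standard errors (SE) and p-values come from quasi-likelihood fits in edgeR, with p-values adjusted by the Benjamini-Hochberg method over all 12558 genes, and a gene was called at an adjusted p under 0.05.

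The control libraries stood apart. Skeletal muscle transcripts (25 genes of contractile and calcium-handling proteins) made up 18.9% to 26.7% of the counts of the 3 control tendons, 0.216% to 1.28% in 7D 0 mg/kg, 0.0198% to 0.0292% in 7D 2 and 6 mg/kg, and 0.0844% to 9.40% at 21D. TMM factors were 0.599 to 0.788 in control tendons and 0.950 to 1.10 in repaired tendons. Macrophage and leukocyte transcripts (15 genes) went the other way, from 0.0164% to 0.106% of the counts of control tendons to 0.154% to 0.904% of repaired tendons. Tendon matrix genes such as Fmod, Comp, Thbs4 and Kera were all present in control tendons, and the 25 genes of that list held 0.998% to 4.68% of the counts of control tendons against 7.04% to 13.8% of repaired tendons. In a whole tendon, fewer cells of a type and less RNA per cell cannot be told apart.

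Mkx and Six2 were lower and Egr2 was higher than in control tendons in all 6 repaired groups, Tnmd was lower in 4 of them, and Scx and Egr1 did not pass the test in any group. Mkx passed the filter on low values through the control tendons alone, and Egr2 through the repaired groups alone. The filter thus favoured the directions seen for Mkx and Egr2, and the counts below include both. At 7D, 4 of the 6 genes were called in each dose group, beside 71.4%, 69.7% and 67.9% of all genes tested at 0, 2 and 6 mg/kg. At 21D, 3, 4 and 3 were called in the groups of 0, 2 and 6 mg/kg, beside 65.9%, 69.1% and 64.1% of all genes. Genes called higher were 35.8%, 35.8% and 34.1% of all genes at 7D and 32.2%, 33.8% and 30.8% at 21D, and genes called lower were 35.6%, 34% and 33.8% at 7D and 33.7%, 35.3% and 33.3% at 21D. The shares of members are near those of all genes, so the number of members called says nothing particular about them, and what follows is about which genes moved, which way and how far. Levels did not overlap control in 4, 4 and 3 of the 6 genes at 7D (61.9%, 59.2% and 66.9% of all genes) and in 3, 4 and 3 at 21D (52.8%, 59.8% and 53.7%).

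**Figure D1:**
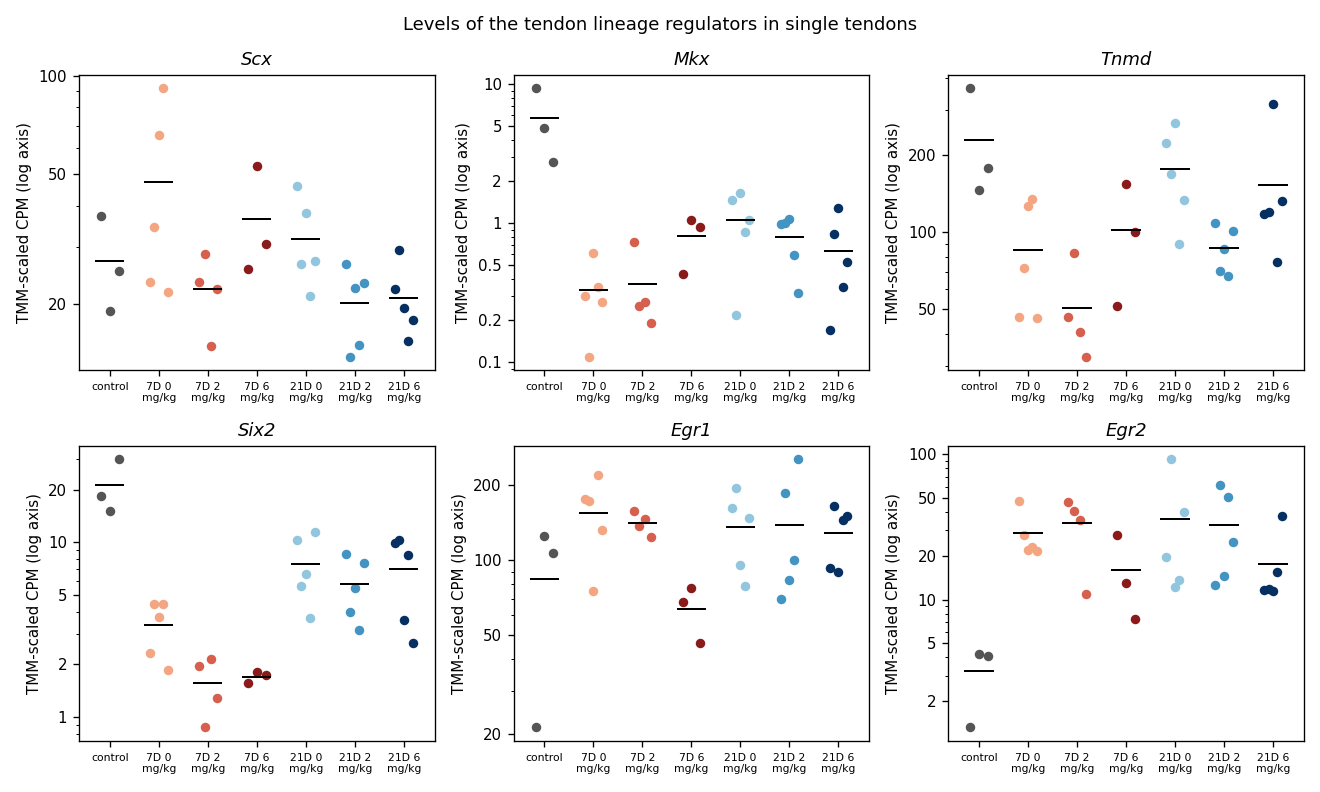
Level of each of the 6 genes in single tendons, in TMM-scaled CPM on a log axis, with 1 point per tendon and a line at the mean of each group. All 27 repaired tendons lie under the lowest control tendon for Mkx and Six2 and over the highest for Egr2, while Scx and Egr1 overlap control in every group but the 7D 2 and 6 mg/kg levels of Egr1 are apart from each other. Mkx passed the filter on low values through control tendons alone and Egr2 through repaired groups alone.

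**Figure D2:**
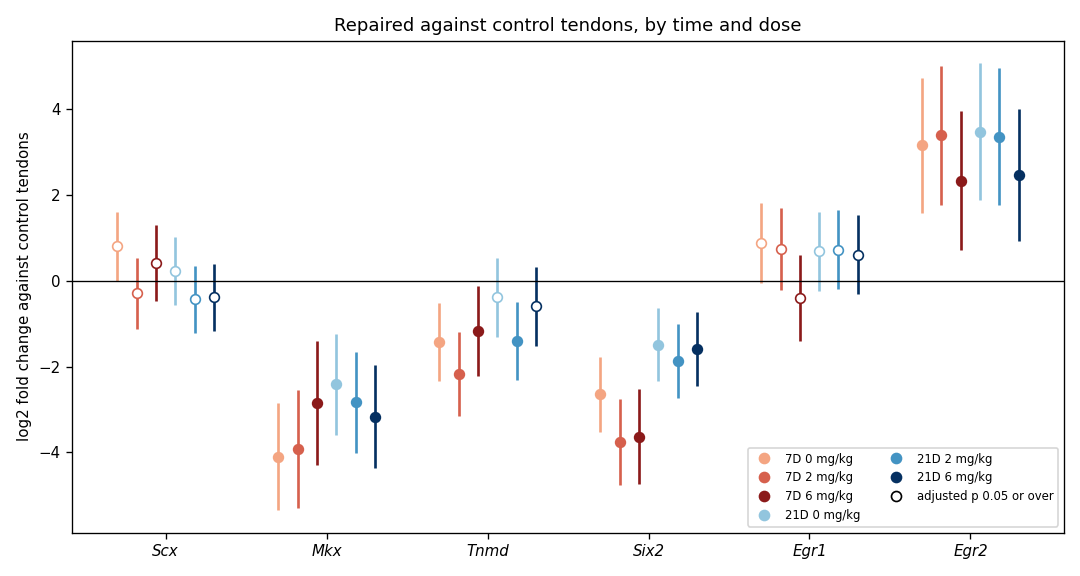
Log2 fold change of each gene in each repaired group against the 3 control tendons, with 95% confidence intervals. Filled points have an adjusted p under 0.05 and open points do not: Mkx and Six2 are below 0 and Egr2 above 0 in all 6 groups, and Tnmd is called lower in 4. The filter on low values favoured these directions for Mkx and Egr2.

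Scx, on chromosome 7 of the rn6 build (ENSRNOG00000021812), encodes the basic helix-loop-helix factor that marks tendon progenitors and activates tenocyte genes. The control tendons had 37.2, 19.0 and 25.3 CPM. The 7D 0 mg/kg tendons had 23.3, 34.5, 65.9, 91.5 and 21.9 CPM, a mean of 47.4 ± 30.4 (SD, n = 5) against 27.2 ± 9.25 (SD, n = 3) in control. Of these 5 tendons, 2 lay well above the control tendons and the other 3 within their range. The log2 fold change was 0.80 (SE 0.39, 95% CI -0.01 to 1.61, adjusted p = 0.0708). Scx was called higher without 7D 0 mg/kg replicate 1 (0.97, adjusted p = 0.0289) or without replicate 5 (0.98, adjusted p = 0.0258).

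At 7D with the compound, Scx was at 23.4, 28.4, 14.9 and 22.2 CPM in the 2 mg/kg tendons and at 25.6, 53.0 and 30.6 CPM in the 6 mg/kg tendons. Their log2 fold changes against control were -0.29 (adjusted p = 0.532) and 0.41 (adjusted p = 0.402). At 21D the levels ran from 21.2 to 46.1 CPM at 0 mg/kg, from 13.8 to 26.5 CPM at 2 mg/kg and from 15.4 to 29.2 CPM at 6 mg/kg, all overlapping control. Against control these 3 groups were at 0.23, -0.43 and -0.38 on the log2 scale (adjusted p = 0.618, 0.32 and 0.389). Ordered by mean from 7D 0 mg/kg down to 21D 2 mg/kg, every one of the 6 pairs of neighbouring groups overlapped. Scx alone of the 6 genes thus had repaired tendons on both sides of control, with 5 of 27 above the highest and 5 below the lowest control tendon.

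Scaled by library size alone, which leaves the muscle transcripts of the control tendons in the denominator, Scx was called higher at 7D 0 mg/kg (1.41, adjusted p = 0.00291) and 7D 6 mg/kg (1.01, adjusted p = 0.0388), and its sign turned in 7D 2, 21D 2 and 21D 6 mg/kg (0.28, 0.10 and 0.11). Under that scaling the median of all genes moved to 0.51 to 0.64 above control, against 0.01 to 0.05 with TMM.

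Mkx, on chromosome 17 (ENSRNOG00000018938), encodes a homeobox factor that sustains collagen production in postnatal tendon. It was detected at 9.39, 4.89 and 2.78 CPM in the control tendons, from 199, 122 and 34 counts. The 7D 0 mg/kg tendons had 0.302, 0.110, 0.616, 0.348 and 0.273 CPM, all of them under the lowest control tendon and each from 4 to 22 counts. Mean levels were 5.69 ± 3.38 (SD, n = 3) and 0.330 ± 0.183 (SD, n = 5), a 17.2-fold lower fitted level (log2 fold change -4.10, SE 0.61, 95% CI -5.35 to -2.85, adjusted p = 1.82e-06).

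The compound groups at 7D were also low in Mkx, with 0.737, 0.252, 0.273 and 0.193 CPM at 2 mg/kg and 0.431, 1.06 and 0.943 CPM at 6 mg/kg. The fitted levels were 15.1-fold (adjusted p = 1.39e-05) and 7.23-fold lower (adjusted p = 0.000911) than control. Without 7D 2 mg/kg replicate 2, the highest tendon of its group, the log2 fold change moved from -3.92 to -4.54 (adjusted p = 1.66e-05). At 21D, Mkx levels with 0 mg/kg were 1.48, 0.220, 1.66, 0.870 and 1.05 CPM. With 2 mg/kg they were 0.982, 1.01, 1.08, 0.594 and 0.314 CPM, and with 6 mg/kg 0.169, 0.841, 1.28, 0.345 and 0.531 CPM. These tendons remained below control, 5.34-fold (adjusted p = 0.000654), 7.14-fold (adjusted p = 0.000122) and 9.01-fold lower (adjusted p = 5.16e-05). Among the repaired groups, in contrast, every neighbouring pair overlapped, so that the 1 gap in the order of Mkx levels was between control and 21D 0 mg/kg.

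Mkx passed the filter on low values through the control tendons alone, so it had to be higher there than elsewhere. With no filter the 7D 0 mg/kg value was -4.08 (adjusted p = 1.94e-06). Mkx was not tested without control replicate 2, since no group then reached the filter, which was set on CPM before TMM scaling. With the skeletal muscle level of each tendon as a covariate, a fit added after the data had been seen, Mkx kept its direction in all 6 comparisons with control but was no longer called at 7D 2 mg/kg (-4.18, adjusted p = 0.0589) and 7D 6 mg/kg (-3.12, adjusted p = 0.149). That fit extends past the data, because no repaired tendon reached the muscle share of any control tendon.

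Tnmd, on chromosome X (ENSRNOG00000060970), is regulated by Scx in developing tendon and was measured at 364, 147 and 178 CPM in the control tendons. The 7D 0 mg/kg tendons had 46.9, 72.4, 127, 135 and 46.2 CPM. All of them were under the lowest control tendon. The means were 229.8 ± 118 (SD, n = 3) and 85.3 ± 42.7 (SD, n = 5), and the fitted level was 2.69-fold lower (log2 fold change -1.43, SE 0.44, 95% CI -2.34 to -0.52, adjusted p = 0.00587). Without control replicate 2, the highest of the 3 control tendons, the call was lost (-0.99, adjusted p = 0.0706).

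Tnmd was at 46.8, 82.9, 40.9 and 32.7 CPM in 7D 2 mg/kg, the lowest group, which was 4.51-fold under control (log2 fold change -2.17, adjusted p = 0.000296). In 7D 6 mg/kg it was at 51.6, 154 and 101 CPM, which overlapped control, with a log2 fold change of -1.17 (adjusted p = 0.0456). That call rested on single tendons, since it was lost without control replicate 2 (-0.73, adjusted p = 0.241), 7D 6 mg/kg replicate 1 (-0.86, adjusted p = 0.188) or replicate 5 (-1.17, adjusted p = 0.0928). It was also lost with the replicate number as a block (-0.90, adjusted p = 0.126), when only these 2 groups were fitted (-1.19, adjusted p = 0.0743), with the muscle covariate (-2.09, adjusted p = 0.149) and when means over 1 CPM were required in all groups (-1.15, adjusted p = 0.0504).

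At 21D the Tnmd levels of vehicle-treated tendons overlapped control, with 223, 168, 266, 89.6 and 134 CPM at 0 mg/kg (176 ± 70.1, SD, n = 5, log2 fold change -0.38, adjusted p = 0.459). The 2 mg/kg tendons had 108, 70.5, 86.1, 67.7 and 101 CPM, all under the lowest control tendon and 2.65-fold lower (log2 fold change -1.41, adjusted p = 0.00692), a call that was lost without control replicate 2 (-0.98, adjusted p = 0.0751). The 6 mg/kg tendons had 117, 119.6, 315, 76.3 and 132 CPM. With the tendon at 315 CPM, replicate 3, the log2 fold change was -0.60 (adjusted p = 0.247), and without it Tnmd was called lower (-1.05, adjusted p = 0.0362). Scaled by library size alone, Tnmd was no longer called at 7D 0 mg/kg (-0.84, adjusted p = 0.093), 7D 6 mg/kg (-0.59, adjusted p = 0.298) or 21D 2 mg/kg (-0.89, adjusted p = 0.0787), and the 21D 0 mg/kg value turned to 0.17.

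Six2, on chromosome 6 (ENSRNOG00000058827), is a homeobox factor that works with Eya coactivators and is known from tendon, muscle connective tissue and kidney progenitors. The control tendons had 18.5, 15.0 and 29.98 CPM. The 7D 0 mg/kg tendons had 2.33, 4.44, 3.75, 4.43 and 1.86 CPM, 6.28-fold lower (log2 fold change -2.65, SE 0.43, 95% CI -3.53 to -1.77, adjusted p = 5.85e-06). Even the highest of these was far under the lowest control tendon.

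In the compound groups at 7D, Six2 was lower still in mean, at 1.95, 0.869, 2.13 and 1.28 CPM with 2 mg/kg and 1.55, 1.82 and 1.73 CPM with 6 mg/kg. These were 13.6-fold (adjusted p = 2.97e-07) and 12.5-fold (adjusted p = 2.43e-06) under control. At 21D the tendons had 10.3, 5.60, 6.59, 3.69 and 11.5 CPM at 0 mg/kg, 8.53, 3.97, 5.47, 3.15 and 7.57 CPM at 2 mg/kg, and 9.86, 10.3, 3.60, 8.49 and 2.65 CPM at 6 mg/kg. All 15 stayed below control, 2.80-fold (adjusted p = 0.00319), 3.68-fold (adjusted p = 0.000343) and 3.02-fold lower (adjusted p = 0.00194). The order of the means put control over the 3 groups at 21D, then 7D 0 mg/kg, and then the compound groups at 7D, with gaps between control and 21D 0 mg/kg and between 7D 0 and 7D 6 mg/kg.

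The level of Six2 moved with the amount of muscle transcript in the tendon. Within groups, Six2 was 0.25 higher on the log2 scale for each doubling of the summed muscle level (SE 0.06, adjusted p = 0.00268, in a fit in which 24.6% of all genes were called), and no other member was called for that slope. Egr2 had a slope of similar size and opposite sign that was just short of the threshold (-0.24, SE 0.09, adjusted p = 0.062). With that covariate the Six2 difference at 7D 0 mg/kg shrank to -1.17 (adjusted p = 0.0446), and at 7D 2 mg/kg (-1.12, adjusted p = 0.287), 7D 6 mg/kg (-1.02, adjusted p = 0.332), 21D 0 mg/kg (-0.44, adjusted p = 0.403), 21D 2 mg/kg (-0.88, adjusted p = 0.0613) and 21D 6 mg/kg (-0.78, adjusted p = 0.0944) it was no longer called. Since muscle share and injury moved together between control and repaired tendons, they cannot be told apart for Six2 or for the other members. Scaled by library size alone, Six2 at 21D 0 mg/kg was just short of the threshold (-0.88, adjusted p = 0.0501).

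Egr1 and Egr2 encode zinc finger factors of the immediate early class, which are transcribed within minutes of a stimulus through serum response factor bound at CArG boxes (CC, then 6 bases that are A or T, then GG). The genes lie on chromosome 18 (ENSRNOG00000019422) and chromosome 20 (ENSRNOG00000000640) of rn6. In the RefSeq table for the GRCr8 build, promoter windows from 250 bases before to 50 after the start were present for 5 of the 6 members and absent for Scx, and Egr1 and Egr2 were the members whose windows held a CArG box. The stretch of 150 bases before each start is printed to show the box that both genes carry, with CArG boxes in capitals, Egr1 at chr18:26736928-26737077 (plus strand) and Egr2 at chr20:21054442-21054591 (minus strand).
Egr1: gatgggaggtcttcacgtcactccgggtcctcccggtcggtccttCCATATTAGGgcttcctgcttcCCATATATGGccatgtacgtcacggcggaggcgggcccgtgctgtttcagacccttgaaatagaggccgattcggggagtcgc
Egr2: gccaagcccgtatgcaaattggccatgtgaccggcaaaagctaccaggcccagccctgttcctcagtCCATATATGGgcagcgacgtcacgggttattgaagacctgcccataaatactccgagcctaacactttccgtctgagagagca

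Egr1 carries 2 such boxes, beginning at -105 and -83 from the start, and Egr2 carries 1, beginning at -83 with the same letters as the second of Egr1. A CArG box was present on either strand in 548 of 33469 promoter windows of the table (1.64%), and the letters CCATATATGG in 11 (0.0329%). Of the 14 other immediate early genes with a window, Klf6 and Zfp36 held a CArG box and none held CCATATATGG. The core of the cyclic AMP response element, ACGTCA on either strand, was present in Egr1 and Egr2 and in 7.94% of all windows. The consensus bound by Egr factors, GCGGGGGCG, was present in Six2 and in 2.73% of windows, its relative GCGTGGGCG in no member and 0.544% of windows, and the E-box CANNTG bound by Scx and its relatives in Egr2 and Six2 and in 72.1% of windows. These are matches of letters in a window and were not tested as sites.

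Egr1 was measured at 21.3, 125 and 107 CPM in the control tendons, of which 1 was well below the others. The 7D 0 mg/kg tendons had 176, 172, 75.2, 220.2 and 133 CPM, with 4 of 5 above the highest control tendon. The means were 155 ± 54.5 (SD, n = 5) and 84.2 ± 55.2 (SD, n = 3), and the log2 fold change was 0.88 (SE 0.45, 95% CI -0.05 to 1.81, adjusted p = 0.0824). Egr1 was called higher without control replicate 3 (1.31, adjusted p = 0.0316) or 7D 0 mg/kg replicate 3 (1.06, adjusted p = 0.0411).

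In 7D 2 mg/kg, Egr1 was at 157, 137, 147 and 123 CPM (log2 fold change 0.75, adjusted p = 0.156), and in 7D 6 mg/kg it was at 68.2, 77.0 and 46.4 CPM (-0.40, adjusted p = 0.484). The 7D 6 mg/kg tendons were the 1 repaired group with a mean under control. At 21D the levels ran from 78.5 to 195 CPM at 0 mg/kg, from 70.2 to 255 CPM at 2 mg/kg and from 89.5 to 165 CPM at 6 mg/kg, which against control was 0.69, 0.72 and 0.61 on the log2 scale (adjusted p = 0.179, 0.154 and 0.235). In all, 15 of the 27 repaired tendons were above the highest control tendon and 0 were below the lowest. Scaled by library size alone, Egr1 was called higher in 5 groups, by 1.49 at 7D 0 mg/kg (adjusted p = 0.00548), 1.31 at 7D 2 mg/kg (adjusted p = 0.0155), 1.26 at 21D 0 mg/kg (adjusted p = 0.017), 1.26 at 21D 2 mg/kg (adjusted p = 0.0166) and 1.12 at 21D 6 mg/kg (adjusted p = 0.0321), and its value at 7D 6 mg/kg turned to 0.20.

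Egr2, which is also a regulator of myelination in Schwann cells and of macrophage differentiation, was at 1.32, 4.25 and 4.08 CPM in the control tendons, from 28, 106 and 50 counts. The 7D 0 mg/kg tendons had 48.0, 27.8, 21.9, 23.2 and 21.6 CPM, each at least several times the highest control tendon. The means were 28.5 ± 11.2 (SD, n = 5) and 3.22 ± 1.65 (SD, n = 3), an 8.93-fold higher fitted level (log2 fold change 3.16, SE 0.77, 95% CI 1.58 to 4.73, adjusted p = 0.00073). Egr2 passed the filter on low values through the repaired groups alone, since its control mean before TMM scaling was 2.26 CPM. It therefore had to be higher in some repaired group than in control. With no filter its calls against control did not change.

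Egr2 was at 47.3, 40.9, 35.2 and 10.9 CPM in 7D 2 mg/kg, 10.5-fold above control (adjusted p = 0.000507). In 7D 6 mg/kg it was at 27.7, 13.0 and 7.39 CPM, 5.05-fold above control (adjusted p = 0.0109), and this call was lost without control replicate 2 (1.90, adjusted p = 0.0585) or 7D 6 mg/kg replicate 1 (1.66, adjusted p = 0.0827). All 7 of these tendons were nevertheless above the highest control tendon.

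At 21D, Egr2 was measured at 19.7, 92.8, 12.2, 13.7 and 40.3 CPM with 0 mg/kg. The 2 mg/kg tendons had 12.7, 61.1, 14.5, 50.9 and 25.1 CPM and the 6 mg/kg tendons 11.7, 11.9, 11.5, 15.4 and 37.8 CPM. The fitted levels were 11.2-fold (adjusted p = 0.000397), 10.3-fold (adjusted p = 0.000461) and 5.53-fold higher (adjusted p = 0.0057) than control. Single tendons within these groups differed by several fold, and without 21D 0 mg/kg replicate 2, the tendon at 92.8 CPM, the log2 fold change of that group fell from 3.48 to 2.75 (adjusted p = 0.00132). Among neighbouring groups the 1 gap in the order of Egr2 levels was between 7D 6 mg/kg and control. Whether the responses of Egr1 and Egr2 to repair differ from each other was not tested.

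Transcripts of other cell types moved with Egr2. Of the 15 macrophage and leukocyte genes, 14 were called higher at 7D in each dose group and 11, 10 and 9 at 21D with 0, 2 and 6 mg/kg, and none was lower. The tendon with most Egr2, 21D 0 mg/kg replicate 2, also had the highest share of leukocyte transcripts (0.904% of counts) and, of the 21D tendons, the lowest share of muscle transcripts (0.0844%). On the Schwann cell list, which includes Egr2, 1 of 7 genes was called at 7D 0 mg/kg and 1 at 7D 6 mg/kg, in both cases Egr2 itself. At 7D 2 mg/kg 4 were higher, with S100b at 1.27 (adjusted p = 0.00442), Mbp at 1.96 (adjusted p = 0.00276) and Pmp22 at 0.69 (adjusted p = 0.0102) beside Egr2, and Ncam1 was lower (-1.15, adjusted p = 0.000973). At 21D 2 of 7 were higher in each dose group, Pmp22 beside Egr2, and none was lower. With the muscle covariate, Egr2 was no longer called at 7D 0 mg/kg (1.79, adjusted p = 0.0912), 7D 2 mg/kg (0.90, adjusted p = 0.652) or 21D 6 mg/kg (1.49, adjusted p = 0.102), turned at 7D 6 mg/kg (-0.13, adjusted p = 0.959), and was still called at 21D 0 mg/kg (2.30, adjusted p = 0.0171) and 21D 2 mg/kg (2.38, adjusted p = 0.0127). The part of leukocytes and of Schwann cells in the Egr2 result was not tested.

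From 7 to 21 days the clearest difference was in Six2. At 2 mg/kg its level was 3.69-fold higher at 21D than at 7D (log2 fold change 1.89, SE 0.43, 95% CI 0.99 to 2.78, adjusted p = 0.00471), and at 6 mg/kg 4.13-fold higher (2.05, SE 0.48, 95% CI 1.06 to 3.04, adjusted p = 0.00637). All tendons at 21D were above all tendons at 7D in both. Six2 was the 1 member called at each of these doses, where 13.1% and 13.1% of all genes were called. Levels also did not overlap between the times for Egr1 at 6 mg/kg, where 21.4% of all genes did not overlap, and at 2 mg/kg this was so for Six2 alone (17.2% of all genes). The muscle genes differed in the same way between these tendons, and with the muscle covariate the Six2 differences were 0.24 (adjusted p = 0.762) at 2 mg/kg and 0.24 (adjusted p = 0.855) at 6 mg/kg. Muscle levels did not overlap between the times at either dose, so time and muscle level cannot be told apart there.

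In vehicle-treated tendons none of the 6 genes was called between 21D and 7D, beside 5.35% of all genes. Mkx was 1.68 higher on the log2 scale at 21D (95% CI 0.56 to 2.80, adjusted p = 0.065), Six2 1.16 higher (95% CI 0.39 to 1.94, adjusted p = 0.0664) and Tnmd 1.05 higher (95% CI 0.23 to 1.86, adjusted p = 0.107), each with overlapping tendons (0 members against 6.85% of all genes without overlap). Without 21D 0 mg/kg replicate 2, Mkx (1.94, adjusted p = 0.0202) and Six2 (1.25, adjusted p = 0.0427) were called. By DESeq2, Mkx (1.70, adjusted p = 0.0233), Tnmd (1.05, adjusted p = 0.0467) and Six2 (1.17, adjusted p = 0.0232) were all called higher at 21D. Scx was at -0.58 (adjusted p = 0.30), Egr1 at -0.20 and Egr2 at 0.32.

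The study asked whether blocking prostaglandin D2 synthesis alters tendon healing, which for these genes is the comparison between doses at each time. Of 36 contrasts between doses, 6 for each gene, 0 were called, with log2 fold changes from -1.28 to 1.25 and a smallest adjusted p of 0.111. Over all genes, 2.36% were called between 2 and 0 mg/kg at 7D, 0.39% between 6 and 0 mg/kg at 7D, and 0% by edgeR in the other four pairs, where 997, 1078, 810 and 1751 genes had an unadjusted p under 0.05 (6 against 2 mg/kg at 7D, then 2 against 0, 6 against 0 and 6 against 2 mg/kg at 21D) and DESeq2 called 69, 19, 1 and 254. For the 6 genes, 7 contrasts had an unadjusted p under 0.05, which is not a call. Levels did not overlap between doses in 2 contrasts of the 6 genes, both at 7D, where 6.65% (2 against 0 mg/kg), 8.01% (6 against 0 mg/kg) and 10.7% (6 against 2 mg/kg) of all genes did not, while at 21D those shares were 1.83%, 1.12% and 4.43%.

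The smallest adjusted p belonged to Scx at 7D, where the 2 mg/kg tendons (14.9 to 28.4 CPM) and the vehicle tendons (21.9 to 91.5 CPM) overlapped (log2 fold change -1.09, 95% CI -1.83 to -0.35, adjusted p = 0.111). It was called without 7D 0 mg/kg replicate 1 (-1.26, adjusted p = 0.046) and by DESeq2 (-1.09, adjusted p = 0.0322). Egr1 at 7D was at -1.28 for 6 against 0 mg/kg (95% CI -2.23 to -0.34, adjusted p = 0.489) and at -1.14 for 6 against 2 mg/kg (95% CI -2.12 to -0.17, adjusted p = 0.531). In the latter pair the tendons did not overlap. Six2 at 7D was at -1.12 (95% CI -1.99 to -0.24, adjusted p = 0.184) for 2 against 0 mg/kg and at -0.99 (95% CI -1.94 to -0.03, adjusted p = 0.822) for 6 against 0 mg/kg, where the tendons did not overlap.

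For those Six2 values the muscle transcripts differed in the same direction, with 0.216% to 1.28% of counts in vehicle tendons and at most 0.0292% in the compound groups. With the muscle covariate the Six2 values were 0.04 and 0.15. Muscle levels of vehicle and compound tendons did not overlap at 7D, so that fit extends past the data. Dose and muscle level cannot be told apart here. The interval of Tnmd for 6 against 2 mg/kg at 7D was 0.03 to 1.97 (95% CI of the log2 fold change, adjusted p = 0.604), and Tnmd was at -1.02 for 2 against 0 mg/kg at 21D (95% CI -1.84 to -0.21, adjusted p = 0.478). In joint tests of the 3 doses, the lowest adjusted p of the 6 genes at 7D was 0.271, for Scx (2.05% of all genes called), and at 21D it was 0.448, for Tnmd (0% called, with 1366 genes at an unadjusted p under 0.05 and 138 called by DESeq2). The dose by time interaction had a lowest adjusted p of 0.689, for Mkx (0.39% of all genes called). The intervals are wide beside these values, so a lack of calls does not show that the doses act alike.

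Across single tendons, Scx and Tnmd went together. Among the 12 tendons of 7D the Pearson r of their log2 levels was 0.877 (permutation p = 5e-05, adjusted over 54 relations 0.0027) and Spearman's rho 0.93 (permutation p = 4e-05, adjusted 0.00216). Without the 2 tendons farthest from the median of Tnmd r was 0.841, and within dose groups it was 0.878 (adjusted permutation p = 0.00972). All p-values within dose groups permuted deviations from group means over all tendons of that time, which may make them too small. Among the 15 tendons of 21D the r was 0.645 (permutation p = 0.00927, adjusted 0.0834), rho was 0.65 (permutation p = 0.0102, adjusted 0.0915), r without the farthest 2 tendons was 0.851, and r within dose groups was 0.561 (adjusted permutation p = 0.173). The relation thus passed the threshold at 7D and missed it at 21D, and the difference between the times was not tested.

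Six2 went with the summed level of the muscle genes at 21D (r = 0.697, permutation p = 0.00313, adjusted 0.0423, rho = 0.85, permutation p = 0.00011, adjusted 0.00297), with r = 0.892 without the farthest 2 tendons and 0.722 within dose groups (adjusted permutation p = 0.029). At 7D the vehicle and compound tendons formed separate clusters in muscle level, with no tendon between 274 and 2028 summed CPM, so no pooled value is given, and within dose groups r was 0.479 (adjusted permutation p = 0.402).

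Egr2 went with the summed level of leukocyte genes at 21D by Pearson's r (0.761, permutation p = 0.00108, adjusted 0.02) but not by Spearman's rho after adjustment (0.621, permutation p = 0.0154, adjusted 0.119), with r = 0.741 without the farthest 2 tendons and 0.755 within dose groups (adjusted permutation p = 0.029). At 7D the r was 0.356 (permutation p = 0.258, adjusted 0.547) and rho 0.413 (permutation p = 0.183, adjusted 0.55). Scx and leukocyte genes at 21D had r = -0.542 (permutation p = 0.0359, adjusted 0.169), and r = -0.744 within dose groups (adjusted permutation p = 0.029). Egr1 and Egr2 had r = 0.638 (adjusted permutation p = 0.153) at 7D and 0.567 (adjusted permutation p = 0.154) at 21D, neither past the threshold.

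**Figure D3:**
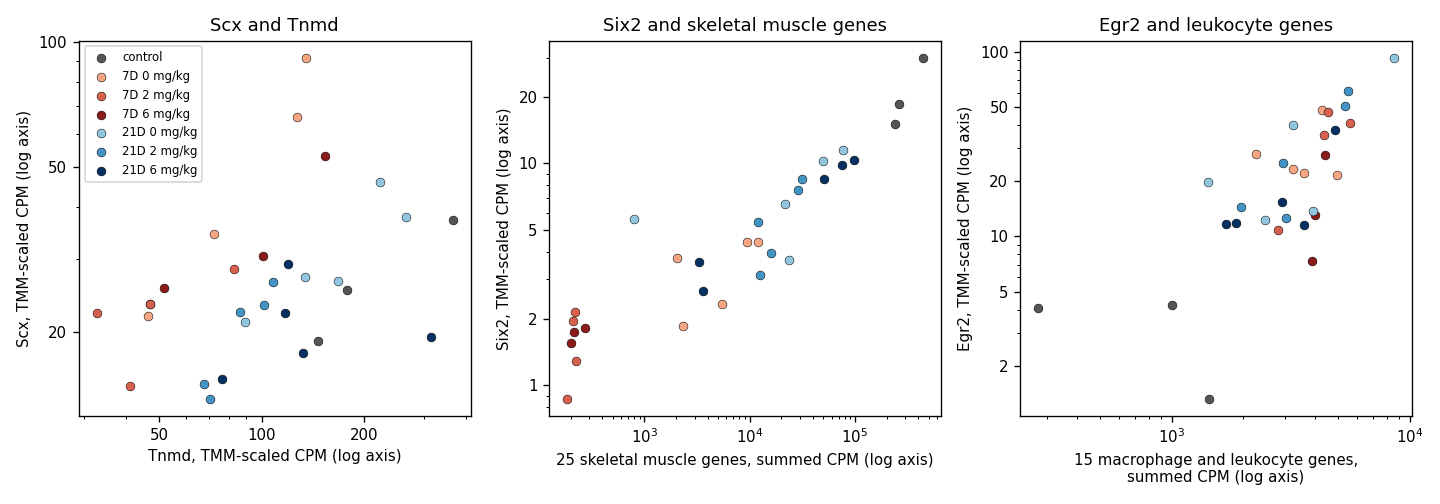
Level of Scx against Tnmd, of Six2 against the sum of 25 skeletal muscle genes and of Egr2 against the sum of 15 macrophage and leukocyte genes in each of the 30 tendons, in TMM-scaled CPM on log axes, coloured by group. Scx and Tnmd go together among the 12 tendons of 7D (r = 0.877), and the control tendons are at the far right for muscle genes and on the left for leukocyte genes.

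The genes most like each member over the 30 tendons, by Pearson r of log2 CPM among 12557 other genes, differed between the members. Tnmd was closest to Fibin (r = 0.869), Cilp2 (0.846) and Tenm3 (0.839), Egr2 had Ccl9 (0.937) and Ocstamp (0.936) among its closest, and Six2 was closest to Jph2 (0.944), Magix (0.939) and Rtn2 (0.936). Jph2 encodes a protein of the junctions between the surface membrane and the sarcoplasmic reticulum of muscle, and Ocstamp a membrane protein of fusing osteoclasts. Egr1 was closest to Ier2 (0.757), Bhlhe22 (0.72) and Fos (0.683), of which Ier2 and Fos are immediate early genes. Mkx was closest to Rhobtb1 (0.79), RGD1311847 (0.79) and Zfp365 (0.783), and Scx to Bcar1 (0.741), Gls2 (0.724) and Adgrl2 (0.705). Without the farthest 2 tendons the r with the first-named gene was 0.589 for Egr1, 0.568 for Mkx and 0.531 for Scx, against 0.816 for Tnmd and 0.943 for Six2. The highest r among the named genes was then 0.596 for Egr1 (Fos), 0.649 for Mkx (Zfp365) and 0.622 for Scx (Gls2). The 30 tendons fall into control and repaired clusters, so these values are a description.

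Among the partners and cofactors of the 6 genes, 9 of 19 tested were higher and 4 were lower at 7D 0 mg/kg than in control (median log2 fold change 0.31 against 0.05 for all genes). Of all genes, 35.8% were called higher and 35.6% lower in that comparison. Among the genes that were lower were Eya1 (-4.64, SE 1.13, adjusted p = 0.000813) and Eya4 (-4.01, SE 0.68, adjusted p = 1.24e-05), coactivators that Six2 and its relatives bind, and Six4 (-3.19), a close relative of Six2. These are also expressed in skeletal muscle, and the muscle list was lower in 25 of 25 genes beside them. Egr3 (1.65, SE 0.45, adjusted p = 0.00211), of the same family as Egr1 and Egr2, and Twist1 (1.62, SE 0.24, adjusted p = 1.87e-06), a helix-loop-helix factor, were higher, as was Nab2 (1.38, adjusted p = 2.52e-07), a corepressor that Egr factors bind. Over the other five groups, 7 to 8 of the 19 partners were higher and 4 to 5 were lower.

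Tendon matrix genes, on which these factors act, were mostly higher: 14 of 25 were called higher and 5 lower at 7D 0 mg/kg (median 1.14), and 13 to 14 higher and 3 to 5 lower in the other five groups. The shares of all genes at 7D 0 mg/kg were 35.8% higher and 35.6% lower. Lum, which encodes the proteoglycan lumican, rose from 163 ± 100.4 to 4714 ± 621 CPM (SD, n = 3 and 5, log2 fold change 4.86, SE 0.38, adjusted p = 1.41e-10), and Col12a1, a collagen of the fibril surface, rose by 3.05 (SE 0.44, adjusted p = 1.10e-06). In the other direction, Clec3a (-6.84, SE 1.26, adjusted p = 3.50e-05) and Chad (-5.74, SE 0.92, adjusted p = 5.91e-06) were lower, both with control levels that varied widely between tendons (290 ± 412 and 421 ± 470.5 CPM, SD, n = 3). Fmod (-1.64), Kera (-3.09) and Cilp2 (-2.39) were the others called lower.

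Of the signals known to act on the 6 genes, 7 of 21 tested were higher and 9 lower at 7D 0 mg/kg (median -0.12), beside 35.8% and 35.6% of all genes. Tgfb1, a ligand that induces Scx, rose by 2.15 (SE 0.30, adjusted p = 8.07e-07) and its receptor Tgfbr2 by 1.36 (SE 0.28, adjusted p = 0.000113). Tgfb2, another ligand of the same receptor, fell by 1.78 (SE 0.16, adjusted p = 1.32e-09), and Smad3, which carries their signal to the nucleus, by 1.64 (SE 0.19, adjusted p = 5.41e-08). Srf, which encodes the factor that binds CArG boxes, was at -0.84 (adjusted p = 5.53e-06). The other five groups had 7 to 9 of the 21 higher and 6 to 9 lower.

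Among 21 other immediate early genes, 8 were higher and 4 lower at 7D 0 mg/kg (median 0.41), 8 and 4 at 7D 2 mg/kg, 4 and 6 at 7D 6 mg/kg, and 9 or 10 higher and 1 or 2 lower at 21D. At 7D 0 mg/kg, 35.8% of all genes were called higher and 35.6% lower. Cyr61 (1.53, SE 0.36, adjusted p = 0.000576) and Junb (1.49, SE 0.33, adjusted p = 0.000315) had the largest rises at 7D 0 mg/kg, while Nr4a1 (-2.21, SE 0.44, adjusted p = 9.66e-05) and Arc (-1.86, SE 0.62, adjusted p = 0.0101) were the lowest. Fos, which shares the CArG mechanism with Egr1, was at 0.02 (adjusted p = 0.976). Between doses, the immediate early list had 1 gene called lower for 6 against 0 mg/kg at 7D.

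**Figure D4:**
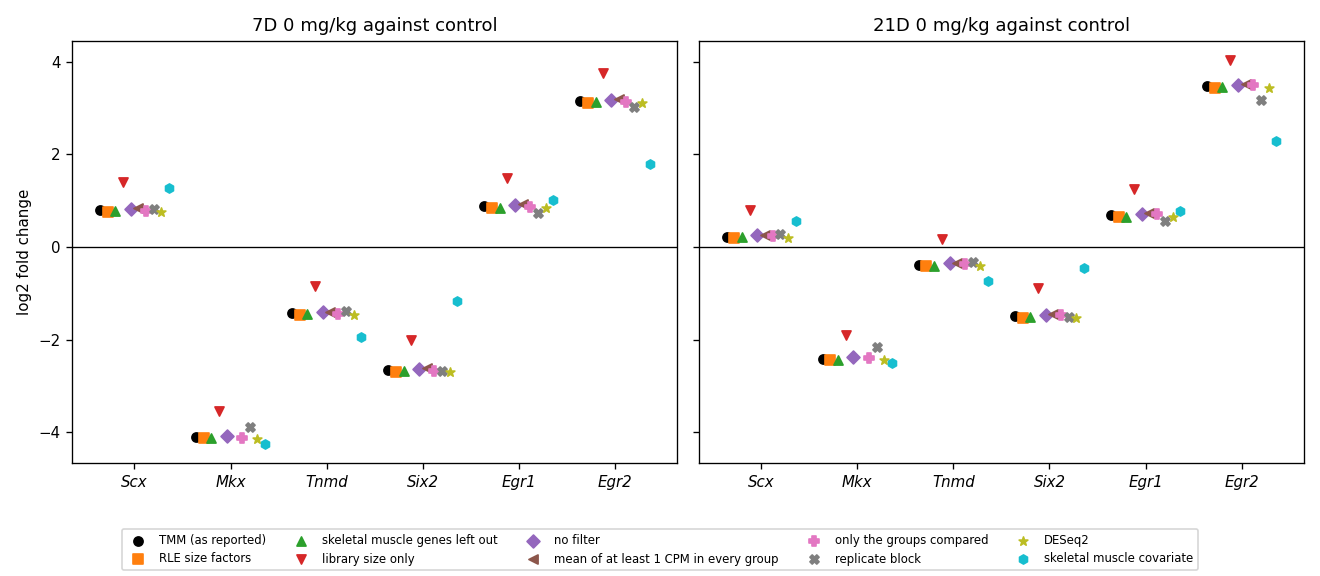
Log2 fold change of each gene at 7D 0 mg/kg and 21D 0 mg/kg against control under the reported setting and 9 others, where each symbol is 1 setting. Scaling by library size alone raises every gene. The muscle covariate brings Six2 and Egr2 nearer to 0, and at 7D 0 mg/kg it takes Scx (1.29) and Tnmd (-1.95) farther from 0. The other settings fall close to the reported value.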

How the data were processed

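RNA of 30 plantaris tendons was sequenced as 50-base single-end reads. Per the labels and methods, the authors trimmed reads with fastp, aligned them to rn6 with STAR, counted them by gene with Ensembl annotation and deposited raw counts per gene for each tendon. The authors' own edgeR output, deposited apart from the counts, was used only for the type, chromosome and width of the genes. Its fold changes, p-values and similar columns were not used. Tendons removed by the authors on read quality were not analysed here. Groups came from the labels.

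The counts were fitted with edgeR 4.0.16 in R 4.3.3 (TMM scaling, glmQLFit and glmQLFTest, 1 mean per group, all 30 tendons in 1 fit). A gene was kept if its mean reached 3 CPM, before TMM scaling, in any of the 7 groups (12558 of 13124, with 566 removed), p-values were adjusted by Benjamini-Hochberg over all of them, and a gene was called at an adjusted p under 0.05 with no fold threshold. The control tendons carry replicate numbers 2 to 4. Nothing in the labels says more than that the tendons are separate samples, so p-values measure the spread between these samples, part of which may be technical. No 2 libraries of a group agreed within sampling noise. Relations across tendons used log2 CPM with a prior count of 2 and two-sided permutation tests with 100000 resamples in NumPy 2.4.6, with ranks from SciPy 1.17.1. For relations within dose groups, deviations from group means were permuted over all tendons of a time and not within each group. Where same-numbered tendons were compared, their deviations from the group means did not go together (median r 0.0068), so the numbers were taken not to pair the tendons. Promoter windows and their letters are from RefSeq GRCr8, and no coordinates were moved between builds.

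Alternatives were RLE size factors, library size only, leaving out the skeletal muscle genes, no filter on low values, means over 1 CPM in all groups, only the groups compared, a replicate block, DESeq2 1.42.0, leaving out each tendon in turn and, added after the data had been seen, a skeletal muscle covariate. The fit was tested on simulated data: for 7D 0 mg/kg against control over 12173 genes, 65 of 90 genes changed 2-fold and 97 of 110 changed 4-fold were called, and 5.26% of calls were false. In the simulation only these genes changed, only in 7D 0 mg/kg, and control tendons had no muscle level of their own. In the data 71.4% of genes were called in this comparison and control tendons were rich in muscle transcripts. The simulated rates therefore do not carry over to it.

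The members and the gene lists were chosen with earlier results of these data known. Genes named beside the 6 members are, from each list, the 2 with the largest rise and the 2 with the largest fall at 7D 0 mg/kg among those called, and the 3 genes with the highest r for each member, apart from a few results that are not reported here. Six4, Nab2, Fmod, Kera, Cilp2, Srf, Fos and the Schwann cell genes were named after their values were seen.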

Additional observations from a re-analysis of the deposited data

Results flagged for a closer look

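In 4 of 30 sets of 4 or 5 tendons, each a member in 1 group, a single tendon lay apart from the others of its group by a gap that was over the 95% limit of Dixon's test as a share of the group's range. For values with a normal spread, chance alone gives about 1 in 20 such sets. The test was run on CPM without logs, and all 4 tendons were the highest of their group. A high tendon stands out more on that scale than on a log scale. The count of 4 in 30 can therefore not be set against that rate. Mkx in 7D 2 mg/kg replicate 2 was at 0.737 CPM against 0.273 in the next tendon, a gap of 0.852 of the range where the limit is 0.829. Tnmd in 21D 6 mg/kg replicate 3 was at 315 CPM against 132 in the next tendon (0.766, limit 0.71). Egr2 was high in 7D 0 mg/kg replicate 1, at 48.0 CPM against 27.8 (0.764, limit 0.71), and in 21D 6 mg/kg replicate 5, at 37.8 CPM against 15.4 (0.852, limit 0.71). The cause was not tested in any of them.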

How the results depend on the processing

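Of 537 alternative values of the 61 log2 fold changes, 494 kept their direction and side of the threshold. RLE size factors and leaving out the skeletal muscle genes changed none of the 61, and no filter changed none but the sign of Egr1 for 21D vs 7D at 2 mg/kg (0.0037, reported as -0.02). The replicate block lost 1 call, Tnmd at 7D 6 mg/kg (-0.90), and changed no other. Same-numbered tendons had r from -0.701 to 0.681, 29 of 76 pairs were over 0.1, and 6 of 30 tendons correlated best with a tendon of their own number.

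The number of the 6 members called moved by over 1.5 times with the muscle covariate to 1 at 7D 2 mg/kg, 0 at 7D 6 mg/kg, 1 at 21D 6 mg/kg, 0 for 21D vs 7D at 2 mg/kg and 0 at 6 mg/kg. With means over 1 CPM in all groups required, where Mkx could not be tested, it was 2 at 7D 6 mg/kg, Tnmd being lost (-1.15). By DESeq2 it was 3 for 21D vs 7D at 0 mg/kg and 1 for 2 vs 0 mg/kg at 7D, and with only the groups compared 2 for 21D vs 7D at 6 mg/kg (Egr1 gained, 1.03). Leaving out each tendon gave 2 to 5 members at 7D 0 mg/kg, 3 to 4 at 7D 2 mg/kg, 1 to 4 at 7D 6 mg/kg, 2 to 3 at 21D 0 mg/kg, 2 to 4 at 21D 2 mg/kg, 2 to 4 at 21D 6 mg/kg, 0 to 2 for 21D vs 7D at 0 mg/kg, 1 to 1 at 2 and 6 mg/kg, 0 to 1 for 2 vs 0 mg/kg at 7D, and 0 to 0 in the other dose comparisons. Mkx gave no value without control replicate 2 or in fits of repaired groups alone.

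Signs turned as follows, the cause not tested. Library size only gave Scx 0.28 at 7D 2, 0.10 at 21D 2 and 0.11 at 21D 6 mg/kg, Egr1 0.20 at 7D 6 mg/kg and Tnmd 0.17 at 21D 0 mg/kg. The muscle covariate gave Scx 0.58 at 7D 2 mg/kg, Egr2 -0.13 at 7D 6 mg/kg and 1.47 for 21D vs 7D at 2 mg/kg, and Six2 0.043 and 0.15 for 2 and 6 vs 0 mg/kg at 7D. Leaving out 1 tendon gave Egr1 at 7D 6 mg/kg -0.91 to 0.015 (the highest without control replicate 3), Tnmd at 21D 0 mg/kg -0.59 to 0.054 (without control replicate 2) and, for 21D vs 7D, Egr2 -0.41 to 0.60 at 0 mg/kg, Scx -0.29 to 0.0015, Egr1 -0.36 to 0.15 and Egr2 -0.38 to 0.18 at 2 mg/kg, and Egr2 -0.35 to 0.80 at 6 mg/kg. None of these was called.

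Over all genes, calls moved by over 1.5 times with the muscle covariate from 8966 to 5617 at 7D 0, 8757 to 1511 at 7D 2 and 8529 to 1609 at 7D 6 mg/kg, and from 1643 to 253 for 21D vs 7D at 6 mg/kg. For 21D vs 7D at 0 mg/kg the 672 calls became 1496 by DESeq2 and 332 with the covariate. For 2 vs 0 mg/kg at 7D the 296 became 710 by DESeq2, 128 with the 1 CPM filter and 1224 with the covariate, and for 6 vs 0 mg/kg the 49 became 194, 0 and 441, 28 without muscle genes and 94 with only these groups. The 258 calls over 3 doses at 7D became 572, 84 and 774, and the 49 of the interaction 181, 8 and 526, 24 without muscle genes, 28 with the block and 31 with only these groups. Pairs at 0 had up to 254 (6 vs 2 mg/kg at 21D, DESeq2). Library size only gave 7474 higher and 2418 lower genes at 7D 0 mg/kg against 4493 and 4473 with TMM, and as skewed a split in the other groups against control. Of the 54 relations, 4 passed the threshold by Pearson's r, 4 with a smaller prior count, 4 for deviations from group means (not the same 4) and 2 by Spearman's rho. Mkx had 3 to 80 counts in repaired tendons, which limits its precision.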
